A study of Drosophila melanogaster with 16 samples.

Results

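The peaks of 2 histone marks, H3K27ac and H3K4me1, were compared in the heads of old flies. Of the 16 libraries of the series, the 8 of day 50 were used: 2 H3K27ac ChIP libraries, 2 H3K4me1 ChIP libraries and 2 inputs for each mark. The flies were Drosophila melanogaster males of the strain w[1118], kept at 25 °C and collected at day 50 of adult life, with 50 mg of heads per biological replicate, and no further genotype or treatment was set between the groups. The w[1118] strain carries a mutation of the white gene, so that all groups share white eyes. The 8 libraries of day 10 are given only beside these values. The authors' peak list of each mark and age was made from both of its replicates together, so there is 1 list per mark and age, without a spread over replicates, and no difference was tested. Shares carry exact Clopper-Pearson 95% intervals, which cover counting error only, and the sequencing depth is unknown. A base outside a peak has no called enrichment, which does not show that the mark was absent from it. Heads hold neurons, photoreceptors, glia, fat body, muscle and blood cells, and 2 marks over the same base can come from different cells.

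H3K4me1 is a single methyl group on lysine 4 of histone H3, set at enhancers mainly by the Trr complex, the fly counterpart of the mammalian MLL3 and MLL4 complexes. H3K27ac is an acetyl group on lysine 27 of the same histone, set by Nejire, the fly CBP, and found at active enhancers and at active promoters. Enhancers with H3K4me1 alone are usually called primed or poised and those with both marks active. At active promoters the nucleosomes nearest the start carry trimethylated lysine 4, and the monomethyl mark lies further out. Lysine 27 can instead carry the trimethyl mark of Polycomb repression, which excludes acetylation of the same residue.

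H3K27ac had 25439 peaks at day 50 and H3K4me1 had 41851, of which 25432 and 41837 lay on chromosomes 2, 3, 4, X and Y. The H3K27ac peaks covered 8.95 Mb with a median width of 285 bp and a median fold enrichment over input of 2.61. The H3K4me1 peaks covered 17.3 Mb with a median width of 295 bp and a median fold enrichment of 2.58. Peaks of the 2 lists therefore had similar widths and folds, and the H3K4me1 list was the longer one. Of the bases under H3K27ac, 56.4% were also under H3K4me1, while 29.2% of the bases under H3K4me1 were also under H3K27ac.

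Markers of head cell types were marked to different degrees. All 6 neuronal markers, elav, nSyb, brp, Syt1, Syx1A and para, carried both marks in the region from 1000 bp before to 1000 bp after the gene. Their median region was 22822 bp, against 3952 bp for photoreceptor markers and 5465 bp for fat body markers. Of all genes with regions of at least 8481 bp, 79.7% carried both marks. The part of region length in these differences was not tested. Photoreceptor markers carried both marks in 6 of 9 genes and fat body markers in 5 of 7, against 62.1% of all 13946 protein-coding genes. The glial markers Gs2, Eaat1, nrv2 and moody carried both marks, repo carried H3K4me1 alone and alrm neither. Among the 6 genes taken as muscle markers only flr carried both, and whether flr is specific to muscle was not tested. Mhc had H3K27ac alone, up H3K4me1 alone, and Act57B, Act88F and TpnC4 neither. Among 5 hemocyte markers only srp carried both, and in the longer muscle and hemocyte lists 6 of 23 and 6 of 15 genes did. Markers of testis, a tissue outside the head, carried both marks at 4 of 6 genes (twe, vas, can and ocn), as did 11 of 28 genes of the longer testis and germline list, and peaks of neighbouring genes count in such a region. Of 3 ovary and eggshell markers, osk and Vml had H3K27ac alone and Cp36 neither.

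Merging all overlapping peaks of both lists gave 49130 sites. Of these, 16050 sites, or 32.7%, held both marks, 8041 sites, or 16.4%, held H3K27ac alone, and the other 25039 held H3K4me1 alone. With the 20000 strongest peaks of each list the counts were 8748, 10622 and 10986, so that the excess of H3K4me1 alone was not seen at equal list lengths. Joining peaks within 500 bp gave 10536 sites with both, 2406 with H3K27ac alone and 11235 with H3K4me1 alone. Sites with both marks were wider, with a median of 456 bp against 237 bp for H3K27ac alone and 267 bp for H3K4me1 alone. A site with both joins at least 1 peak of each list, while each site of 1 mark was a single peak. Greater width thus follows in part from the merging. They held 9.44 Mb, about as much as the 9.45 Mb of H3K4me1 alone, and H3K27ac alone held 2.30 Mb. Counted by peaks, 17385 H3K27ac peaks overlapped an H3K4me1 peak by at least 1 base, which was 68.4% of the list (interval 67.8% to 68.9%). In the other direction 16791 H3K4me1 peaks overlapped H3K27ac, or 40.1% (39.7% to 40.6%). Taking only the 20000 peaks of each list with the highest −log10 q brought these shares to 46.9% and 45.0%, so the 2 directions then differed by little.

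With all peaks, most H3K27ac summits lay under H3K4me1, but with the 20000 strongest peaks of each list only 40.9% did. The summit, the base of highest enrichment in a peak, was covered by an H3K4me1 peak for 15574 of 25432 H3K27ac peaks, or 61.2% (60.6% to 61.8%). A further 7566 summits, or 29.8%, had H3K4me1 within 1000 bp but not over them. No H3K4me1 lay within 1000 bp of the remaining 2292 summits, or 9.01%, whose nearest H3K4me1 peak was a median of 1705 bp away. Around all H3K27ac summits together, the share of positions under H3K4me1 was 61.2% at the summit, 26.0% at 310 bp to the left and 26.1% at 310 bp to the right, and came to 33.0% and 32.8% at 1100 bp to the left and 900 bp to the right. Seen from H3K4me1, 34.1% of its summits lay under H3K27ac, and 17581 summits had no H3K27ac within 1000 bp, with a median distance of 3565 bp to the nearest one. For 22.9% of those the nearest H3K27ac peak was over 10 kb away, against 4.71% of the H3K27ac summits without H3K4me1.

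The share differed with the place of the H3K27ac summit. At gene ends, meaning within 500 bp of either end of an annotated gene, only 2637 of 7367 H3K27ac summits were under H3K4me1, which was 35.8% (34.7% to 36.9%). Inside genes, more than 500 bp from an end, 11400 of 15940 summits were under it, or 71.5% (70.8% to 72.2%). Distal summits, more than 1000 bp from any gene, resembled those inside genes, with 1233 of 1752 under H3K4me1, or 70.4% (68.2% to 72.5%). The remaining 373 summits, outside genes between 500 and 1000 bp from an end, were under it in 81.5% of cases (77.2% to 85.3%). At gene ends H3K4me1 was instead found beside the summit: 56.4% of the summits had it within 1000 bp but not over them, against 19.1% inside genes and 18.3% at distal places. Strand is not used here, so a gene end may be a start or an end of transcription.

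The profile of H3K4me1 around the summit dipped on both sides of the summit at gene ends, inside genes and at distal places, but its flanks differed. At gene ends H3K4me1 covered 35.8% of the summits, 20.9% of positions 210 bp to the left and 21.7% of positions 200 bp to the right, and then 44.1% at 1140 bp to the left and 43.9% at 1340 bp to the right. The flank thus stood 8.33 percentage points above the summit. Inside genes the highest flank was 30.0%, which was 41.5 points below the summit. At distal places the highest flank was 42.8 points below the summit.

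**Figure D1:**
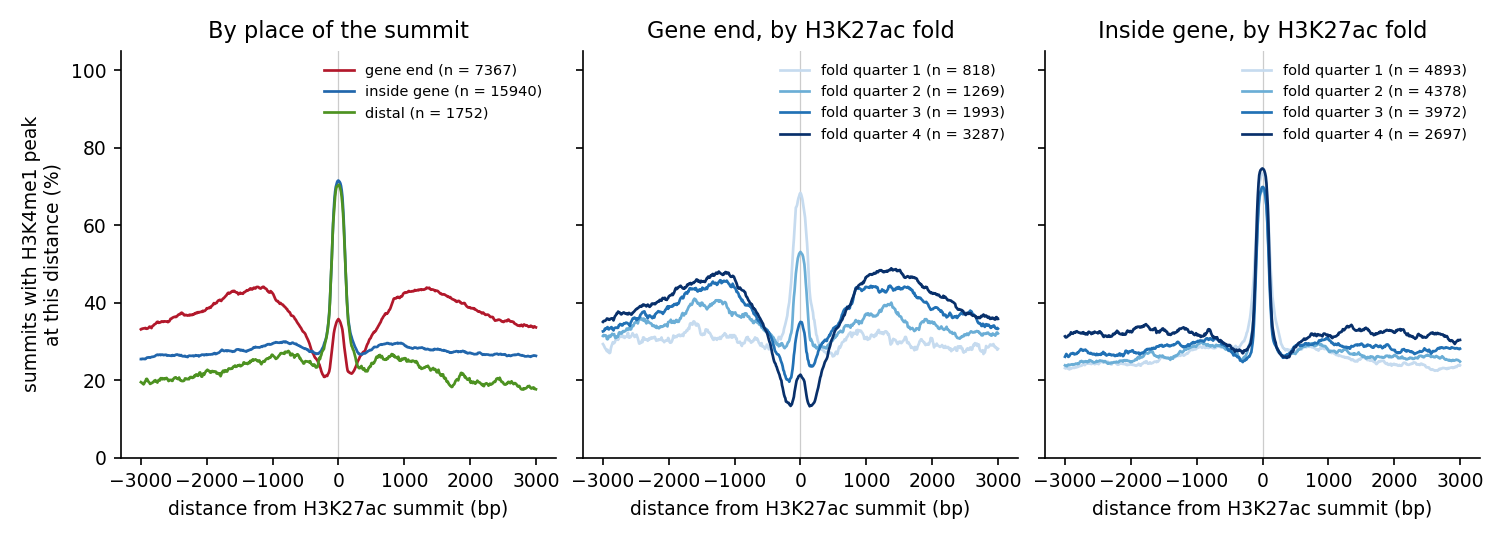
Percent of H3K27ac summits with an H3K4me1 peak at each distance from the summit (bp) at day 50, for summits at gene ends, inside genes and at distal places (left), and by H3K27ac fold bin at gene ends (middle) and inside genes (right). At gene ends the summit value is 68.3% in the lowest fold bin and 21.4% in the highest, where the flanks lie above it, while inside genes all 4 bins peak at the summit between 69.1% and 74.6%.

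The arrangement at gene ends went with the strength of acetylation. The H3K27ac list was divided at the quartiles of its fold enrichment into 4 bins. At gene ends the share of summits under H3K4me1 was 68.3% in the bin of lowest fold (n = 818), 53.1% in the second (n = 1269), 35.1% in the third (n = 1993) and 21.4% in the highest (n = 3287). The intervals of these 4 shares did not overlap, the highest bin reaching from 20.1% to 22.9%. In that highest bin H3K4me1 covered 13.4% of positions 150 bp to the left and 13.4% of positions 160 bp to the right, and 48.0% at 1240 bp to the left. Its highest flank stood 27.4 points above the summit, whereas in the lowest bin the flank was 33.1 points below it.

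Inside genes no such decline was seen. There the 4 bins gave 73.3%, 69.1%, 69.9% and 74.6% from lowest to highest fold. At distal places the shares were 67.9%, 67.9%, 70.4% and 79.5%. The bin of highest fold thus had the smallest share at gene ends, and inside genes and at distal places its share was the largest of the 4, though its interval overlapped that of the lowest bin inside genes and that of the third bin at distal places. When −log10 q had to reach 5, the share was 28.8% at gene ends and 65.9% inside genes, and distal summits were not run. With the 20000 strongest peaks of each list the shares were 22.9% and 49.8%.

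H3K27ac summits without H3K4me1 over them often had it on both sides. At gene ends 1893 of 4730 such summits, or 40.0%, had H3K4me1 within 1000 bp on both sides, 47.8% on 1 side and 12.1% on neither. Inside genes 21.7% of 4540 such summits had it on both sides and 33.0% on neither. The median H3K27ac fold at gene ends was 2.67 for summits under H3K4me1, 3.34 for summits with H3K4me1 near and 3.08 for summits with none. Inside genes the 3 medians were 2.46, 2.50 and 2.42.

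H3K27ac summits at gene ends looked different on their outer and inner sides. For 3114 H3K27ac summits at the ends of genes of at least 3000 bp, turned so that the gene lay to the right, H3K4me1 covered 34.5% of summits, 10.1% of positions 360 bp outward and 23.0% of positions 210 bp inward. Its outer flank reached 40.4% at 1620 bp and its inner flank 47.0% at 1580 bp. The lowest H3K4me1 share was thus smaller on the outer side of these summits than on the inner side. These distances were counted from the summit, not from the gene end.

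Positions were also counted from the gene end itself in genes of at least 3000 bp. In 2787 genes H3K27ac lay within 500 bp of 1 end only. At that end H3K27ac was most frequent 210 bp into the gene, at 67.6% of genes. The choice requires H3K27ac within 500 bp on either side of the end, but not on the inner side. At the end itself both marks were low, with H3K27ac at 9.76% and H3K4me1 at 9.44% of genes. Over the first 500 bp inside, H3K27ac covered on average 55.0% and H3K4me1 16.7%, and over the next 500 bp 34.0% and 37.3%. H3K4me1 reached its maximum of 43.8% at 1700 bp into the gene. Outside the same end it covered on average 21.9% over the first 1000 bp and 36.1% from there to 3000 bp. At the other end of the same genes H3K4me1 covered 3.16% at the end, on average 9.98% over the first 500 bp inside and 17.9% over the first 1000 bp outside, and at most 35.7%, at 2090 bp inside. At 3674 ends of genes with H3K27ac at neither end, H3K4me1 covered 6.92% over the first 500 bp and 8.34% between 1000 and 3000 bp inside.

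**Figure D2:**
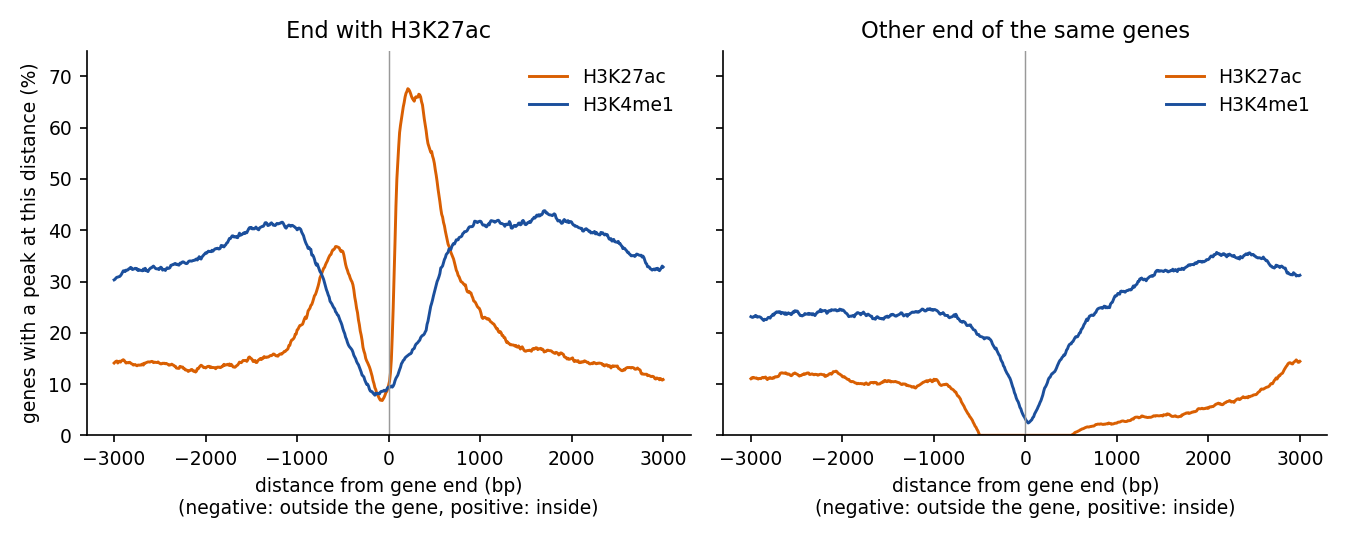
Percent of 2787 genes with an H3K27ac (orange) or H3K4me1 (blue) peak at each distance from the gene end (bp, positive inside the gene) at day 50, for the end chosen for its H3K27ac (left) and the other end (right). Both marks are low at the acetylated end itself (H3K27ac 9.76%, H3K4me1 9.44%). Inside the gene H3K27ac is highest at 210 bp and H3K4me1, with 43.8%, at 1700 bp. H3K27ac is 0 near the other end because the genes were chosen so.

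Summits of the 2 marks lay close to each other where H3K4me1 covered the H3K27ac summit. For those 15574 summits the nearest H3K4me1 summit was a median of 33 bp away, and 39.2% had one within 20 bp. Over all H3K27ac summits the nearest H3K4me1 summit lay a median of 197 bp away, and 24.0% had one within 20 bp. Inside genes 29.1% of summits had an H3K4me1 summit within 20 bp and the median distance was 81 bp. Distal summits were alike, with 29.3% and 73 bp. At gene ends 11.2% had one within 20 bp, and the median distance was 543 bp. Counting all pairs in bins of 20 bp, 2809 and 3229 pairs fell in the bins on either side of 0, only 162 pairs at 120 to 140 bp to the left and 130 at 140 to 160 bp to the right, and 378 pairs in the bin farthest to the left, at 980 to 1000 bp. Chromatin was cut with MNase, which releases nucleosome-sized pieces, for both marks alike, and the part of this step in the spacing was not tested.

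**Figure D3:**
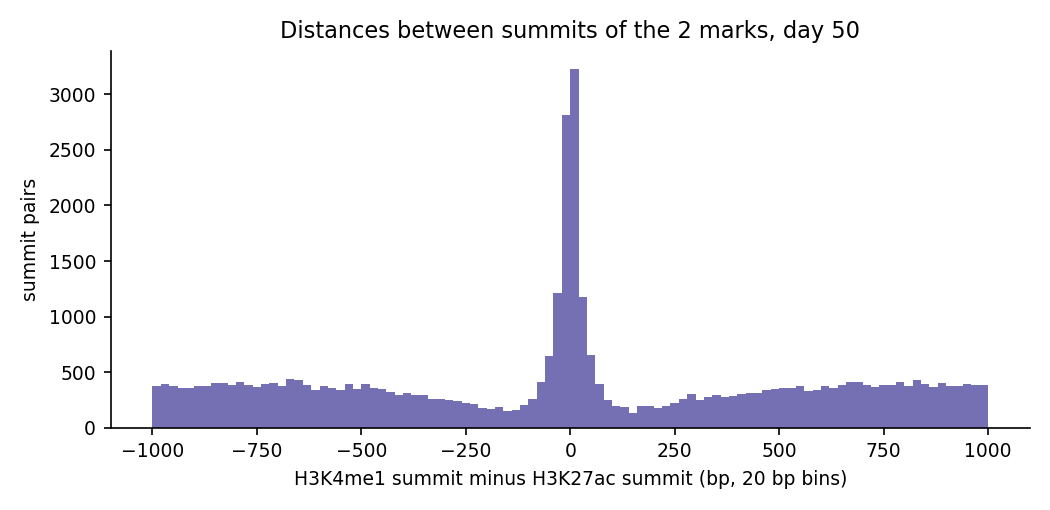
Number of pairs of an H3K4me1 and an H3K27ac summit by their distance in bins of 20 bp at day 50. The central bins hold 2809 and 3229 pairs, the bin at 140 to 160 bp to the right only 130.

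Stronger H3K4me1 was more often acetylated. The share of H3K4me1 summits under H3K27ac was 18.9% in the bin of lowest H3K4me1 fold, then 29.4%, 37.6% and 49.9% in the highest. The median H3K4me1 fold was 2.83 for summits under H3K27ac, 2.73 with H3K27ac within 1000 bp and 2.35 with none. At distal places 64.8% of 4863 H3K4me1 summits had no H3K27ac within 1000 bp, against 40.3% of 29444 inside genes and 31.9% of 6613 at gene ends. H3K4me1 far from genes was thus the most often without acetylation, but in the highest H3K4me1 fold bin 49.4% of 790 distal summits were under H3K27ac.

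The strongest H3K27ac peaks in each arrangement lay at these positions, given on BDGP6. Under H3K4me1, the peak of highest fold, 7.31, was at 2L:481083-481956 inside ush, which encodes a partner of GATA transcription factors. Others were a wide peak of fold 7.17 at 2R:9542218-9546356 over CG1888, a distal peak of fold 7.08 at 3R:10081490-10083605 that lay 6831 bp from Alp13, and a peak of fold 6.91 at 2L:6086749-6088414 in Kr-h1, a zinc-finger factor of the juvenile hormone response. Xrp1, which encodes a stress-induced bZIP factor, held another, of fold 6.84, at 3R:18916285-18916934. It also held the H3K27ac peak of highest fold, 7.55, among those with no H3K4me1 within 1000 bp of the summit, at 3R:18918265-18918670, whose nearest H3K4me1 was 1413 bp away. Summits under H3K4me1 and without it nearby thus stood in 1 gene.

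H3K27ac peaks of high fold with H3K4me1 beside them were mostly at gene ends. The ribosomal protein gene RpL36A had one of fold 6.50 at 2L:8041992-8042828, whose summit was 199 bp from the gene end and 372 bp from H3K4me1. MKP-4, which encodes a MAP kinase phosphatase, had one of fold 6.50 at X:19623140-19623594 with H3K4me1 at 226 bp. Cnx99A, the gene of the chaperone calnexin, had one of fold 6.47 at 3R:29318835-29319537 with H3K4me1 at 158 bp, and CG1416 one of fold 6.44 at 2L:21758099-21758753 with H3K4me1 at 369 bp. Only 1 of the 5, 4903 bp from CG1888, was distal. Among strong peaks without H3K4me1 within 1000 bp of the summit were those in mts (fold 6.10), the catalytic subunit of the phosphatase PP2A, CG9921 (fold 5.86), CG18135 (fold 5.70) and Cep164 (fold 5.63), a centriole protein gene. The peak in CG18135 was 2736 bp wide, and H3K4me1 lay 1026 bp from its summit. This peak belonged to a site with both marks, since no site of H3K27ac alone was wider than 1514 bp.

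The strongest H3K4me1 peaks without acetylation lay at genes of developmental transcription factors. The T-box genes H15 and mid, which are neighbours on chromosome arm 2L, had peaks of fold 5.54 and 5.52 within 500 bp of a gene end, at 2L:5403520-5404418 and 2L:5461861-5462136. The nearest H3K27ac peak was 62012 bp away for H15 and 57419 bp for mid. E5, a homeobox gene, had a peak of fold 5.41 at 3R:13874583-13875566, 34948 bp from H3K27ac. Near ss, which encodes a factor that sets photoreceptor subtype, a peak of fold 5.25 lay 27821 bp from H3K27ac, and Six4, another homeobox gene, had one of fold 5.14 at 4091 bp. With H3K27ac over the H3K4me1 summit, the strongest peaks were in Hr3 (fold 5.90), CG7272 (fold 5.84), NTPase (fold 5.66) and Eip75B (fold 5.66), and 886 bp from the end of dl (fold 5.66). Hr3 and Eip75B are nuclear receptors of the ecdysone response, and dl encodes the NF-kappaB factor Dorsal.

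Most genes carried both marks or neither. With 1 base of peak in the gene region taken as presence, 8660 of 13946 protein-coding genes, or 62.1%, carried both marks and 3379 genes, or 24.2%, carried neither. H3K4me1 alone was found at 1630 genes, or 11.7%, and H3K27ac alone at 277 genes, or 1.99%. With equal list lengths these were 898 and 897 genes, so that the difference between the 2 classes was not seen there. In 1422 of the genes with both marks, or 16.4%, no base was under both. Longer regions met more peaks: genes with both marks had a median region of 4802 bp, those with H3K4me1 alone 4065 bp, those with H3K27ac alone 3693 bp and those with neither 3230 bp. Of genes with regions of 1879 to 3022 bp 34.6% carried both marks, and of those with regions of at least 8481 bp 79.7%. Within 500 bp of a gene end, 6597 genes (47.3%) carried both marks, 1239 (8.88%) H3K27ac alone, 1655 (11.9%) H3K4me1 alone and 4455 (31.9%) neither.

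Gene regions with most bases under both marks included genes of hormone response, sleep and Notch signalling. CG46467 had 28.3 kb under both marks in a region of 116 kb, with 85 H3K27ac and 84 H3K4me1 peaks. The region of tara, a transcriptional coregulator known for its role in sleep, was the densest of the 6, with 70.0% of its bases under H3K27ac, 62.1% under H3K4me1 and 57.5% under both. Eip74EF, an ecdysone-induced ETS factor, had 31.2% under both, and EcR, the ecdysone receptor, had 21.9%. The remaining 2 were mub, the gene of an RNA-binding protein, with 21.0%, and mam, a Notch coactivator, with 25.1%. Over all genes the median share of the region was 7.77% under H3K27ac, 16.3% under H3K4me1 and 0.716% under both.

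Of the 6 genes with most H3K27ac bases and no H3K4me1, 5 lay on the X, against 82 of all 277 genes (29.6%) with H3K27ac alone. These 6 were NdufV3 (65.4% of the region), amrt (54.4%), Tim8 (46.6%), Chchd2 (30.1%), lawc (22.8%) and Pur-alpha (9.83%). Pur-alpha is the one on chromosome 4. NdufV3 encodes a subunit of respiratory complex I, Tim8 a chaperone of mitochondrial protein import and Chchd2 a protein of the mitochondrial intermembrane space. At day 10, NdufV3, amrt, Tim8 and Chchd2 had also carried H3K4me1, over 0.178, 0.252, 0.005 and 0.31 kb, so that the difference in class came from short stretches.

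Genes with much H3K4me1 and no H3K27ac included regulators of development. L, which is needed for growth of the eye, had 7.48 kb of H3K4me1 in 16 peaks. Ufd4, a ubiquitin ligase gene, had 58.2% of its region under H3K4me1, and enok, the gene of a MYST histone acetyltransferase, had 65.1%. Hmx, a homeobox gene, had 46.4%. MSAmiP, with 9.69%, and its neighbour Abd-B, with 12.1%, lie in the bithorax complex of Hox genes. The longest genes with neither mark were Myo81F (1968 kb) and DIP-lambda (381 kb), which lie beside the centromeres, and the Y-linked Ppr-Y (250 kb) and kl-3 (229 kb). Reads are hard to place in the repeats of such regions, and the part of this in the missing peaks was not tested.

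Hox and segmentation genes stood out by carrying H3K4me1 without H3K27ac. Of 25 such genes, 18 had H3K4me1 alone (72.0%, against 11.7% of all genes), 2 had both marks, 5 had neither and 0 had H3K27ac alone. These genes lay out the body axis in the embryo, and most are silenced by Polycomb proteins in cells outside their domain. The Hox genes lab, pb, Dfd, Scr, Antp, abd-A and Abd-B all had H3K4me1 alone, over 14.1%, 5.54%, 7.30%, 11.9%, 3.94%, 7.06% and 12.1% of their regions. In Abd-B the H3K4me1 peaks reached a fold of 4.65, and in abd-A 4.18. Ubx was the exception among the Hox genes listed only by a very small share, with 0.0802% of its region under H3K27ac, from a peak of fold 2.11. Its class of both marks rested on that share, and whether the peak lay mostly outside the region was not tested.

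Among the segmentation genes H3K4me1 was densest at slp1 (52.1% of the region), en (42.7%), slp2 (42.2%) and odd (35.4%). The hedgehog gene hh carried both marks, with 2.99% under H3K27ac and 4.11% under H3K4me1. No peak of either mark lay at kni, bcd, ftz, tll or gt. Genes of the list share loci, slp1 with slp2 and en with inv, and the Hox genes stand in 2 clusters, so these counts are not of independent places. With equal list lengths 16 of the 25 had H3K4me1 alone.

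Transcription factors of the nervous system and eye were divided. Of 28 genes, 17 carried both marks (60.7%, against 62.1% of all genes). A further 7 carried H3K4me1 alone (25.0%, against 11.7%) and 4 neither (14.3%, against 24.2%). Their regions had a median length of 18860 bp. Of all genes with regions of at least 8481 bp, 79.7% carried both marks and 12.4% H3K4me1 alone. The neuronal RNA-binding protein gene elav had more H3K27ac than H3K4me1, with 28.7% and 19.7% of its region. The eye genes eya and so had both, with 3.73% and 11.7% under H3K27ac against 18.5% and 31.9% under H3K4me1. H3K4me1 alone was found at ato, the proneural gene of the first photoreceptor, over 48.3%, at repo, the transcription factor of glia, over 47.8%, and at dac, otp, tap, oc and Lim1. The proneural genes ac, sc, l(1)sc and ase, which act in neural precursors, had neither mark.

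Several lists of basic cell functions carried both marks at nearly all their genes, against 62.1% of all genes. All 32 proteasome genes had both, as did 69 of 70 mitochondrial ribosomal protein genes, 77 of 86 cytosolic ribosomal protein genes and 40 of 42 genes of chromatin modifiers. All 12 genes of the ecdysone response had both, as did 17 of 18 clock genes, where only the neuropeptide gene Pdf had neither. The clock list included Rpn13, which is also counted among the proteasome genes. The ecdysone genes had a median region of 65040 bp and the clock genes of 12713 bp. Of all genes with regions of at least 8481 bp, 79.7% carried both marks. Within 500 bp of a gene end, 6 of the 12 ecdysone genes carried both (50.0%, against 47.3% of all genes). There 14 of 18 clock genes did (77.8%). Coverage was above the medians of all genes in these lists. In proteasome genes the median was 20.2% of the region under H3K27ac and 38.6% under H3K4me1, and in mitochondrial ribosomal protein genes 27.8% and 36.1%. In chromatin modifier genes it was 18.4% and 42.2%. The share of the region under both marks at once had a median of 5.93% in proteasome genes and 1.95% in translation initiation genes, of which 35 of 44 carried both marks (79.5%) and 7 neither, against 0.716% over all genes.

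Cytosolic ribosomal protein genes were divided between the marks. In 40 of 86, or 46.5%, more of the region was under H3K27ac than under H3K4me1, against 16.0% of all genes, and in 44, or 51.2%, less was, against 59.7%. Genes of oxidative stress and detoxification were alike in this, with 18 and 16 of 38. RpS28a had 65.9% under H3K27ac and 11.8% under H3K4me1, and RpS19a 43.7% and 4.92%. RpL14 lay at the other extreme, with 21.9% and 57.5%. H3K27ac alone was found at RpL38, RpL10, RpS3A, RpS14a, RpS14b and RpS28b, of which the last 3 are on the X and RpS3A on chromosome 4. RpS14a and RpS14b are near-identical neighbours, between which reads could be split. RpS5b and RpL27 had H3K4me1 alone, over 29.9% and 29.8%, and RpL10Aa neither.

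**Figure D4:**
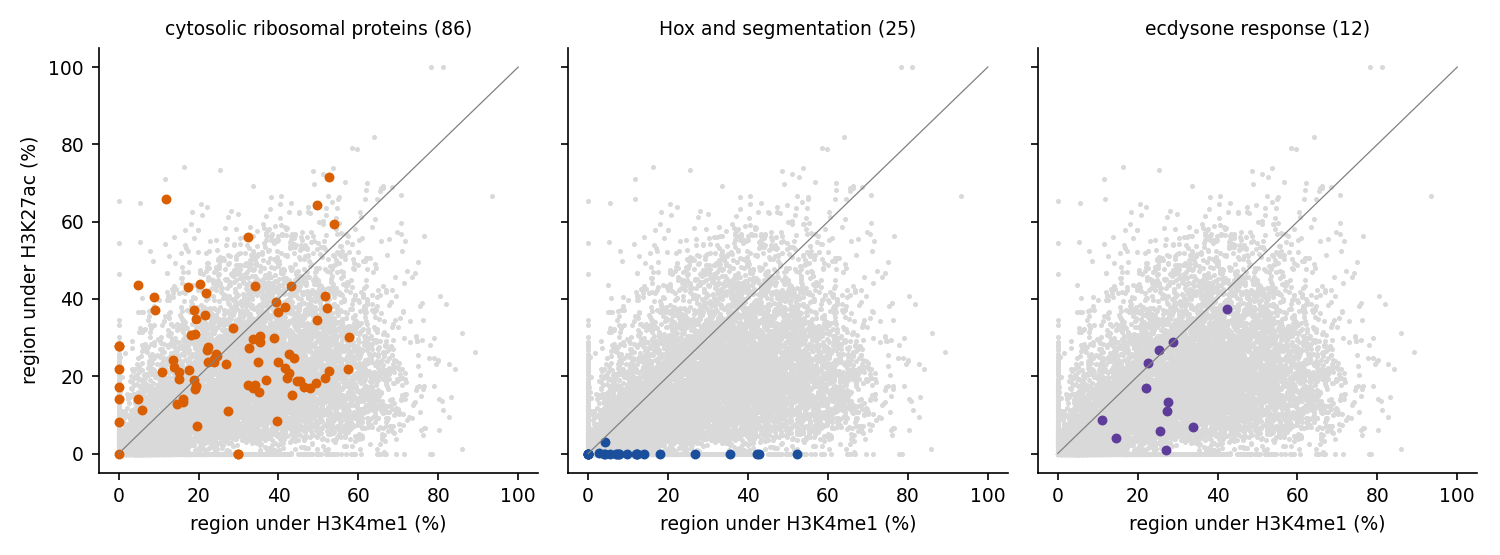
Percent of the gene region under H3K27ac against that under H3K4me1 at day 50, for all 13946 protein-coding genes (grey) and the genes of 3 lists (colour), with the line of equal values. Ribosomal protein genes spread on both sides of the line, 23 of the 25 Hox and segmentation genes lie at 0 on the H3K27ac axis, and the 12 ecdysone response genes carry both marks.

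Nuclear genes of oxidative phosphorylation carried both marks in 64 of 78 cases (82.1%, against 62.1% of all genes). Their exceptions, all but ND-AGGG, were gene copies named with an added L, such as COX5BL, with 66.4% under H3K4me1 alone, while COX5B carried both. Other such copies, among them COX7AL, COX7CL, ND-51L1 and ATPsynbetaL, carried both marks. Autophagy genes carried both marks in 22 of 24 cases, and Atg10 and Atg8b, the second gene for Atg8, had H3K4me1 alone. Atg8a had 41.9% under H3K27ac and 12.0% under H3K4me1. Near gene ends, 8 of these 24 genes, or 33.3%, had H3K27ac alone, against 8.88% of all genes.

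Neuronal genes have long regions, and of all genes with regions of at least 8481 bp 79.7% carried both marks. Of 27 genes of synaptic vesicles and release, 23 had both (85.2%) and 4 had H3K4me1 alone, namely VGlut, Vmat, Snap25 and Syt7, which encode the vesicular transporters of glutamate and of monoamines, a SNARE protein and a synaptotagmin. The complexin gene cpx had 45.6% of its region under H3K27ac and 32.1% under H3K4me1, while Synj, the synaptojanin gene, had 1.94% and 51.1% with no shared base. Of 33 genes of neurotransmitter synthesis and receptors, 24 had both marks (72.7%) and 8 H3K4me1 alone (24.2%, against 11.7% of all genes). Among these 8 were ple, DAT, Tdc2 and Tbh, which make or transport dopamine, tyramine and octopamine. The others were the receptor genes Grd, nAChRalpha4, nAChRbeta2 and Dop1R2. Further monoamine genes, among them Ddc, SerT, Dop1R1, Dop2R and Oamb, carried both marks. Of 22 channel genes 17 had both (77.3%), so that these shares of genes with both marks lay near the 79.7% of long regions. Near their ends, 9 of the 22 channel genes (40.9%) had H3K27ac alone, against 8.88% of all genes. The regions of these channel genes had a median length of 29.4 kb, and those of all genes 4.16 kb.

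Surface recognition genes, which include the dpr and DIP families that match synaptic partners, carried both marks in 44 of 57 cases (77.2%, against 79.7% of genes with regions of at least 8481 bp) and H3K4me1 alone in 11. The neurexin gene Nrx-1 had 5.72% under H3K27ac and 39.2% under H3K4me1, and dpr4 had 25.1% and 13.9%. Phototransduction genes carried both in 23 of 31 cases (74.2%, against 62.1% of all genes). Within 500 bp of a gene end 10 of the 31 did (32.3%, against 47.3% of all genes). The main rhodopsin gene ninaE had 4.58% of its region under H3K27ac and 13.2% under H3K4me1, with no shared base, and Rh5 68.9% and 68.5%. Rh6, ninaC, Arr1, ninaD, retinin and Rh2 had neither, although Rh6, ninaC and Arr1 are transcribed strongly in photoreceptors. In whole heads a cell type gives a part of the chromatin, and fewer cells and less of a mark per cell cannot be told apart.

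Stress genes carried both marks more often than the average gene, and immunity genes about as often. Of 20 heat shock and chaperone genes 16 carried both marks (80.0%, against 62.1% of all genes), and DnaJ-1 had 44.4% under H3K27ac and 28.8% under H3K4me1. Hsp70Aa and Hsp70Ab had H3K4me1 alone and Hsp70Bb and Hsp70Bc neither, while Hsp70Ba had both, but these copies are near-identical and reads could not be assigned among them with certainty. Of 38 genes of oxidative stress and detoxification 31 carried both marks (81.6%). GstE12, in a cluster of glutathione transferase genes, had 66.6% under H3K27ac and 93.4% under H3K4me1. Of 35 immunity genes 23 carried both (65.7%), among them Drs and Mtk, while the diptericin and cecropin genes (DptA, DptB, CecA1, CecA2, CecB and CecC) carried neither.

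Gene families of cuticle and chemical sensing carried mostly neither mark. Neither mark was found at 90 of 110 cuticle protein genes (81.8%), at 117 of 180 chemosensory receptor genes (65.0%) and at 25 of 51 odorant-binding protein genes (49.0%), against 24.2% of all genes. These genes are also short, with median regions of 3010, 3692 and 2788 bp. Among receptors with both marks, Or2a had 11.0% under H3K27ac and 57.7% under H3K4me1. Of 23 muscle genes 8 had neither mark, as had 7 of 15 hemocyte genes and 11 of 28 testis and germline genes.

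Glia, fat body and insulin and TOR signalling genes differed in their shares. Of 18 glial genes 15 carried both marks (83.3%, against 62.1% of all genes). Their median region was 8466.5 bp, and of genes with regions of at least 8481 bp 79.7% carried both. Within 500 bp of a gene end 7 of the 18 did (38.9%, against 47.3% of all genes). MtnA, a metallothionein gene, had 61.5% under H3K27ac and 36.9% under H3K4me1. Of 23 fat body and lipid genes 14 carried both (60.9%) and 9 neither (39.1%, against 24.2% of all genes). Among the latter were the larval serum protein genes Lsp1alpha, Lsp1beta and Lsp1gamma and the yolk protein genes Yp1 and Yp2. Other members of these families carried both: Yp3 had 23.2% under H3K27ac and 12.1% under H3K4me1, and Lsp2 9.98% and 11.9%. Of 26 genes of insulin, TOR and lifespan 20 carried both marks (76.9%). Within 500 bp of a gene end 11 of the 26 did (42.3%, against 47.3% of all genes). Thor, the gene of the translation repressor 4E-BP, had 43.6% under H3K27ac and 27.6% under H3K4me1, and Lkb1 14.2% and 80.2%.

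**Figure D5:**
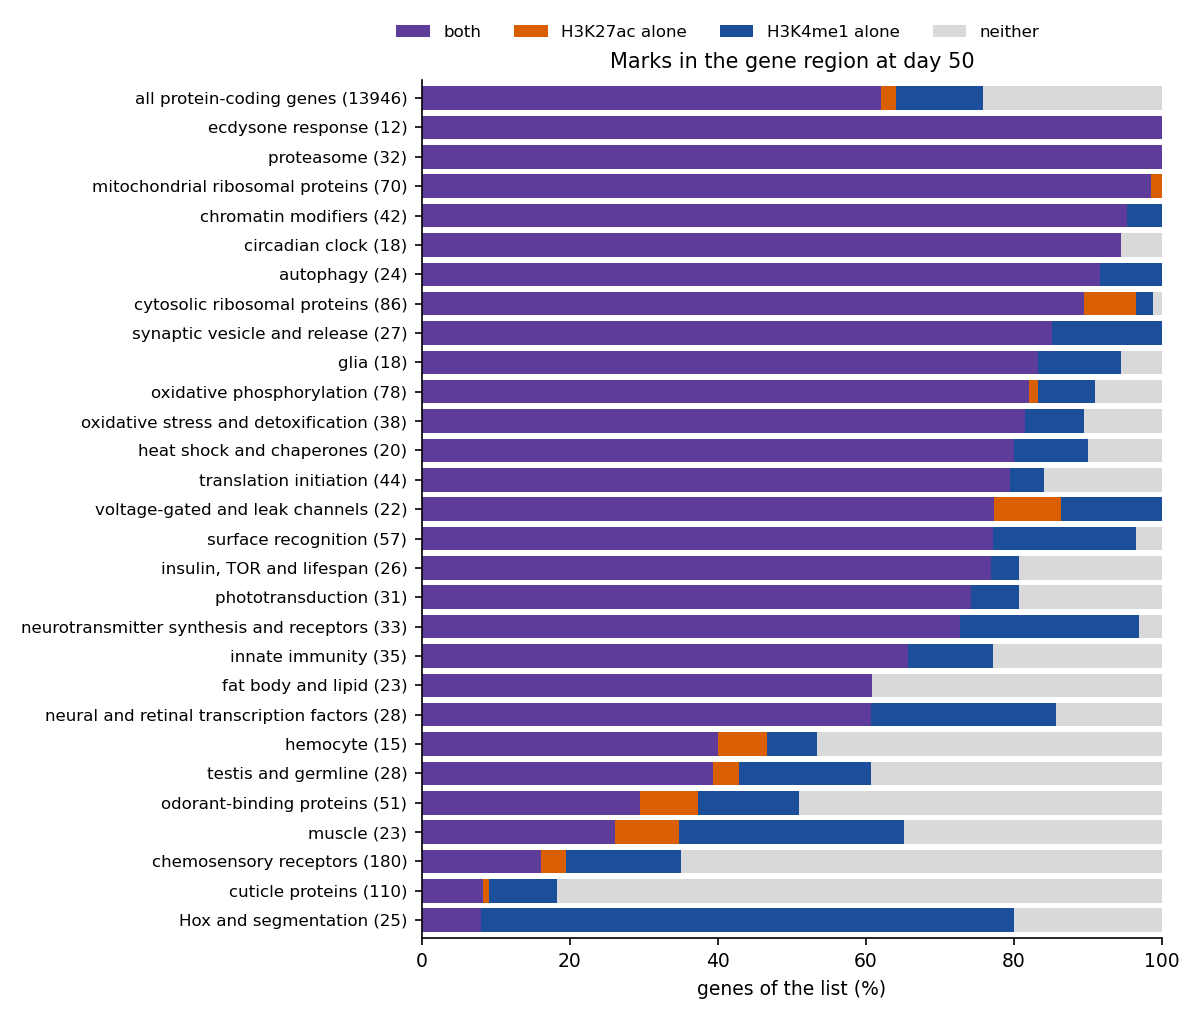
Percent of the genes of each list (number of genes in brackets) with both marks, H3K27ac alone, H3K4me1 alone or neither in the gene region at day 50, with all 13946 protein-coding genes in the top bar. Proteasome genes are all marked by both, Hox and segmentation genes mostly by H3K4me1 alone (18 of 25) and cuticle protein genes mostly by neither (90 of 110).

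The genes of the enzymes that set these marks carried much H3K4me1 themselves. The region of trr, the H3K4 methyltransferase gene, was 69.1% under H3K4me1 and 10.2% under H3K27ac, with 0 shared bases. Lpt, which encodes a subunit of the same complex, had 65.0% and 19.0%, and nej, the gene of CBP, had 41.1% and 8.39%. Utx, whose product removes methyl groups from lysine 27, had 22.2% under H3K4me1 and no H3K27ac peak. Among the Polycomb genes, Psc had 68.2% under H3K4me1 and 6.34% under H3K27ac, and ph-d had 30.8% and 38.9%.

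Several of the widest sites of H3K4me1 alone also lay over chromatin genes. The widest, of 6812 bp, covered most of trr at X:1882017-1888828, with the nearest H3K27ac 1078 bp to the left and 773 bp to the right. The next were at Chd1 (6601 bp), a chromatin remodeller gene, mask (6547 bp), Ncoa6 (6051 bp), which encodes a subunit of the Trr complex, HUWE1 (5358 bp), a ubiquitin ligase gene, and Spt20 (5317 bp), a gene of the SAGA coactivator. Each of these 6 sites was a single H3K4me1 peak. Among sites with both marks the widest, of 6738 bp, lay at jim, CG45428 and CG11226 at 3L:22833889-22840626, where 1 H3K27ac peak met 7 H3K4me1 peaks and 5235 bp were under both. At Ranbp21, a site of 4879 bp had only 178 bp under both. Sites of H3K27ac alone were narrower, and the widest, at 18w, a gene of the Toll family, was 1514 bp wide, followed by kek1 (1477 bp) and CtsF (1438 bp).

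The X chromosome held more of the H3K27ac peaks than of the H3K4me1 peaks. Of the H3K27ac peaks 19.2% lay on the X, of the H3K4me1 peaks 13.3% and of the protein-coding genes 15.8%. H3K27ac summits on the X were under H3K4me1 in 53.4% of 4894 cases (52.0% to 54.8%), and between 60.2% and 65.9% on the arms of chromosomes 2 and 3. No H3K4me1 lay within 1000 bp of 16.9% of X summits, against 5.39% to 8.93% on those arms. At gene ends alone the share with none was 17.1% on the X (15.1% to 19.2%) and 5.76% elsewhere (5.19% to 6.38%). Of the 277 genes with H3K27ac alone, 82, or 29.6%, were on the X. Males have a single X, which is transcribed at a raised rate through the MSL complex, and male cells hold fewer copies of it than of an autosome, in input and ChIP alike. The part of X copy number in these shares was not tested.

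Chromosome 4, which is small and rich in heterochromatin, differed from the others too. Of its 132 H3K27ac summits, 57.6% were under H3K4me1 (48.7% to 66.1%) and 22.0% had none within 1000 bp (15.2% to 30.0%). Of its 80 genes, 25, or 31.3%, carried H3K4me1 alone, against 11.7% of all genes, and 41 carried both marks. The Y carried 1 H3K4me1 peak and no H3K27ac peak, and 23 of its 24 genes had neither mark.

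The arrangement at day 10 was close to that at day 50. In the young heads 68.2% of H3K27ac peaks overlapped H3K4me1, 61.7% of H3K27ac summits lay under it (61.1% to 62.2%), and 32.6% of the sites held both marks. At gene ends 34.2% of day 10 summits were under H3K4me1, and inside genes 70.9%, against 35.8% and 71.5% at day 50. Both marks were found at 8394 genes at day 10, and 8143 of the 8660 genes with both at day 50, or 94.0%, were among them. H3K27ac alone was the least stable class, with 141 of 277 genes in it at both ages, and 67 of them had carried both marks at day 10. Of the 1630 genes with H3K4me1 alone at day 50, 1163 had been in that class at day 10, 154 had carried both marks and 298 neither. With 1 list per age, the day 10 and day 50 values cannot be separated from differences between the lists in depth or threshold.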

How the data were processed

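Each mark was measured by ChIP-seq of MNase-cut, briefly sonicated chromatin from male fly heads, with 2 ChIP and 2 input libraries per mark and age. Per the submitters' processing notes, the tools were Trim Galore, FastQC, STAR 2.5.3a, MACS2 2.1.1 and deepTools, with the build BDGP6; no settings are recorded there. The deposited peak lists, 1 per mark and age from both replicates pooled per the labels, give for each peak the fold enrichment (a ratio to input), the −log10 p and −log10 q, and the summit's offset from the start. The −log10 q values deposited by the authors ranked peaks in the alternatives. Depth is not given, so no limit of detection was computed.

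Intervals, distances and shares were computed with Python 3.11.15, numpy 2.4.6, pandas 2.3.3 and scipy 1.17.1 and were tested on simulated peaks. Peaks overlapping by 1 base count as shared. Profiles used steps of 10 bp out to 3000 bp. Genes came from the RefSeq table for Release 6, which BDGP6 denotes, with 13946 protein-coding genes on the main chromosomes. It gives no strand here, so both gene ends replaced gene starts. No genome sequence was used. Gene regions reached 1000 bp beyond each end. Of the entries in the 28 gene lists, 15 matched no gene symbol. Members and lists were chosen with earlier results of these data known. Named genes were those with the most bases of each class, the 5 peaks of highest fold per class and, in each list, the extremes of the difference between the marks and small groups of exceptions; other list members named were chosen after their values were seen. Alternatives were stricter thresholds, equal list lengths, other overlaps, windows and joins, and leaving out the X.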

Additional observations from a re-analysis of the deposited data

Results flagged for a closer look

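Outside the main chromosomes the day 50 lists held 7 H3K27ac peaks and 14 H3K4me1 peaks on unplaced sequences, which no comparison above used. Of the 14 H3K4me1 peaks, 8 lay on a single scaffold assigned to the Y. The highest fold among them was 2.76 for H3K27ac and 3.38 for H3K4me1. They were singled out because they are signals in sequences without annotated genes used here.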

How the results depend on the processing

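Shares and counts moved with the threshold, the list lengths and the windows. With peaks of −log10 q of at least 5, 60.7% of H3K27ac peaks overlapped H3K4me1, 38.2% of H3K4me1 peaks overlapped H3K27ac, 53.4% of H3K27ac summits were under H3K4me1, the highest flank was at −21.0 points from the summit (−28.2 with all peaks) and 438 genes had H3K27ac alone. With the 20000 strongest peaks of each list, which changes threshold and length together, these were 46.9%, 45.0%, 40.9%, −14.2 points and 897 genes, with 8748 sites of both marks, 10622 sites of H3K27ac alone, 10986 sites of H3K4me1 alone and 898 genes of H3K4me1 alone. Requiring overlap of 50% of the shorter peak gave 63.6% and 37.5%. Joining peaks within 500 bp gave 10536 sites with both marks, 2406 with H3K27ac alone and 11235 with H3K4me1 alone. Without the X, 63.1% of summits were under H3K4me1, and with the gene body alone 434 genes had H3K27ac alone. Alternatives for place were chosen after seeing the data. Summits under H3K4me1 at gene ends were 28.8% (stricter threshold), 22.9% (equal lengths) and 27.5% (250 bp window), and inside genes 65.9%, 49.8% and 66.9%. The flank at gene ends was 14.6, 16.0 and 19.4 points above the summit. The count of 277 genes with H3K27ac alone was the gene class that moved most among those run. No paired analysis was possible because each list pools both replicates, and for the same reason no replicate could be left out. Both marks at 1 place may come from different cells, and peak calls show enrichment past a threshold, not amounts.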
